A study of Mus musculus with 12 samples.

Results

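The effect of TCM on CD8+ T cells held in IL-12 was read from 6 of the 12 libraries of the study: 3 of the group labelled IL-12 and 3 of the group labelled IL-12 80%TCM. CD8+ T cells had been prepared from splenocytes of C57BL/6 mice, and both groups carried IL-12, so that TCM was the labelled difference between them. The labels do not spell out TCM, give no duration, age or transgene, and tumor-like conditions are named only in the series title. The other 6 libraries, from IL-2 with and without 80%TCM, were used here only for the comparison of the TCM effect between the cytokines and in alternative fits. Nothing in the labels tells whether 3 libraries of 1 group are 3 mice, 3 cultures or repeats of one preparation. The p-values therefore weigh differences against the spread between these libraries only, and that spread may be technical.

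CD8+ T cells kill infected or malignant cells with perforin and granzymes. IL-12 is a cytokine of dendritic cells and macrophages that acts through the receptor chains Il12rb1 and Il12rb2 and the transcription factor STAT4 and promotes interferon gamma and cytotoxic genes. A dividing T cell draws on glycolysis, on lipid and nucleotide synthesis and on ribosome production, and each of these programmes has its own transcription factors: HIF-1 for glycolysis and the response to low oxygen, SREBP for sterols and fatty acids, E2F for DNA replication and MYC for ribosome production.

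In units of 1e+06 counts, 4 of the 6 libraries held 19.5 to 20.7, while replicates 1 and 2 of IL-12 alone held 49.6 and 42.3 and thus have less counting error. Expression is stated in CPM, counts per 1e+06 counts of a library, and a group by its mean ± SD (n = 3), and log2 fold changes are TCM minus IL-12 alone with their standard error (SE). Principal component 1, with 66.5% of the variance, separated the groups, and component 2, with 10.1%, set replicate 1 of IL-12 with TCM (20.2) apart from replicates 2 and 3 (-8.44 and -10.6). The CD8 label was matched by its markers: the 9 CD8 T cell markers summed to 4433 to 4548 CPM with IL-12 alone and to 4700 to 4959 CPM with TCM. The extraction text of the labels speaks of bortezomib-treated livers, while the hepatocyte markers Alb, Apob, Ttr and Cyp2e1 were at 0 counts in all 6 libraries. In bulk RNA, fewer cells of a type and less RNA per cell cannot be told apart.

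A gene was called higher or lower at an adjusted p below 0.05 (edgeR quasi-likelihood F test, Benjamini-Hochberg). Of 14590 genes tested, 7133 were called (48.9%), 3715 of them higher with TCM (25.5%) and 3418 lower (23.4%). These shares are the background against which each gene list below is read, and the median log2 fold change of all genes tested was 0.01. The called share grew with level, from 21.3% below 1 CPM and 40.9% at 1 to 10 CPM to 55.8% at 10 to 100 CPM. It was 65.4% from 100 CPM. A list of abundant genes is thus set against a share that includes low genes, and lists were not matched for level. Of the called genes 1136 higher and 1377 lower ones changed at most 1.2-fold, and 1297 and 1442 more than 1.2-fold and up to 1.5-fold. A change of at least 2-fold was called for 658 genes (4.51%), 493 higher (3.38%) and 165 lower (1.13%), and 407 of the 493 had a mean below 10 CPM. Levels of the 2 groups did not overlap for 6734 called genes (46.2%). With all 12 libraries in 1 fit, which shares the spread of the IL-2 libraries, 4617 genes were called, and 7332 were called when replicate 3 of both IL-2 groups was left out of that fit.

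**Figure D1:**
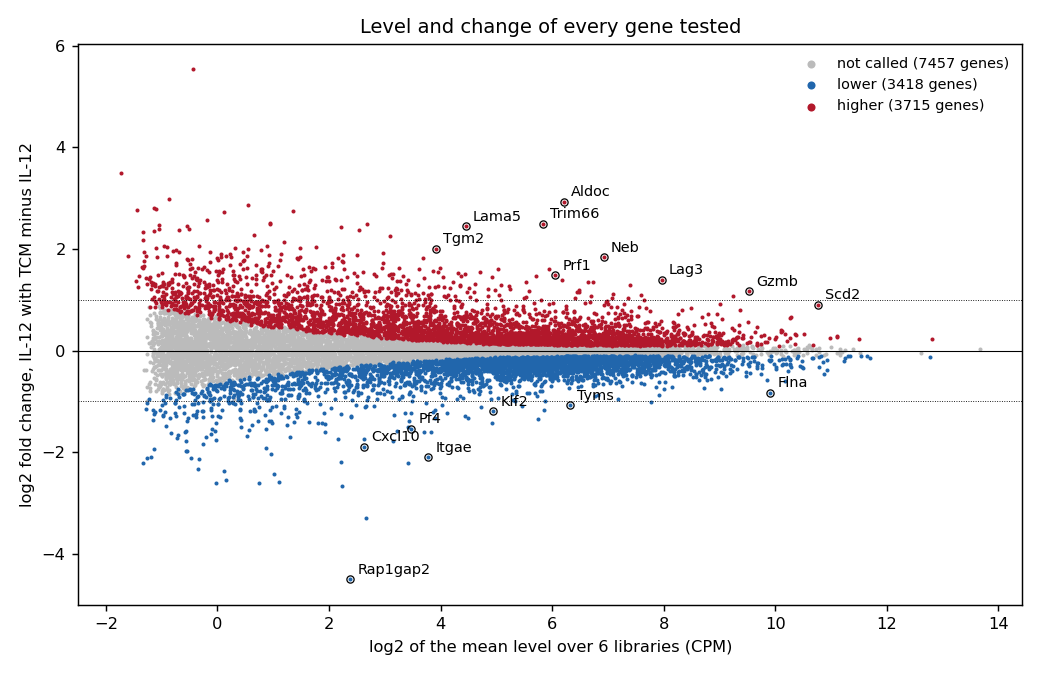
Each point is 1 of the 14590 genes tested, by the log2 of its mean level over the 6 libraries (CPM) and its log2 fold change with TCM, and dotted lines mark a 2-fold change. Called genes (red higher, blue lower) reach small changes at high levels, and most changes above 2-fold lie at low levels.

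The gene with the largest rise among those above 10 CPM was Aldoc (ENSMUSG00000017390), the aldolase C isoform of glycolysis. It was at 17, 16.1 and 19.3 CPM with IL-12 alone and 133, 142 and 118 CPM with TCM, a log2 fold change of 2.93 ± 0.065. All 3 libraries with TCM lay far above those without. Trim66 (ENSMUSG00000031026), a chromatin reader of the TRIM family, was at 17.6, 17.5 and 16.1 CPM with IL-12 alone and 103, 90.5 and 97.7 CPM with TCM. Lama5 (ENSMUSG00000015647), a laminin chain of basement membranes, was at 5.88, 7.32 and 7.49 CPM with IL-12 alone and 35, 34.1 and 41.6 CPM with TCM. The groups stood apart for both genes, with log2 fold changes of 2.50 ± 0.057 and 2.45 ± 0.090.

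Vegfa (ENSMUSG00000023951), the vascular growth factor, was at 6.26, 5.29 and 5.35 CPM with IL-12 alone and 19.8, 21.7 and 19.2 CPM with TCM, without overlap. Pygl, which releases glucose from glycogen, rose from 1.96 ± 0.158 to 10.8 ± 2.43 CPM, and Tgm2, a transglutaminase that cross-links proteins, from 5.99 ± 0.446 to 24.1 ± 2.76 CPM. Neb, best known as the giant thin-filament protein of muscle, rose from 53.2 ± 2.72 to 190.2 ± 24.6 CPM. Spred3, an inhibitor of the Ras and ERK pathway, rose from 3.06 ± 0.52 to 14.1 ± 1.77 CPM and Arhgef25 from 4.66 ± 0.172 to 14.4 ± 0.971 CPM. Sema3b, a secreted semaphorin, rose from 3.67 ± 0.473 to 12 ± 0.625 CPM, Emilin2, a matrix glycoprotein, from 7.77 ± 0.569 to 23.9 ± 2.45 CPM and Adamts14, a secreted protease, from 3.71 ± 0.567 to 11.7 ± 0.203 CPM. Cxcr2, a chemokine receptor better known from neutrophils, rose from 6.13 ± 0.56 to 18.4 ± 0.495 CPM, and Serpinb5, a serpin of epithelia, from 16.2 ± 0.785 to 49.2 ± 1.15 CPM. The neutrophil markers S100a8, S100a9, Ltf and Elane were at 0 counts in all 6 libraries. Adjusted p-values (edgeR) of the 15 largest rises among genes with at least 10 CPM in the higher group lay between 1.3e-20 and 2.4e-11. Vegfa and Pygl missed the threshold in the 12-library fit.

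Itgae (ENSMUSG00000005947), the CD103 integrin chain by which T cells bind epithelium, was at 21.6, 22 and 23.3 CPM with IL-12 alone and 5.79, 5.77 and 4.08 CPM with TCM. Tmem154 (ENSMUSG00000056498), a membrane protein, was at 18.1, 18 and 16.6 CPM with IL-12 alone and 4.09, 3.41 and 3.99 CPM with TCM. Neither gene overlapped between the groups, and the log2 fold changes were -2.09 ± 0.10 and -2.21 ± 0.10. Uchl1, a deubiquitinating enzyme, fell from 13.6 ± 0.129 to 3.99 ± 0.575 CPM, and Cpd, a carboxypeptidase of the secretory pathway, from 14 ± 1.63 to 4.71 ± 0.537 CPM. Rasgrp2, the exchange factor that switches on the GTPase Rap1 in adhesion, fell from 77.2 ± 4.49 to 30.4 ± 1.46 CPM, and Arhgap29, which acts downstream of Rap1, from 30.5 ± 0.665 to 12.6 ± 0.28 CPM. Lair1, an inhibitory receptor for collagen, fell from 21.4 ± 0.755 to 8.46 ± 0.873 CPM, and Ifi44, an interferon-stimulated gene, from 44.2 ± 0.715 to 16.4 ± 1.69 CPM. Crmp1 fell from 21.3 ± 1.41 to 7 ± 0.409 CPM, Unc5c, a netrin receptor, from 15.5 ± 0.906 to 5.95 ± 0.844 CPM and Nefh, a neurofilament chain, from 32.1 ± 2.79 to 13 ± 1.13 CPM. Adjusted p-values (edgeR) of the 15 largest falls among genes with at least 10 CPM in the higher group lay between 1.4e-15 and 5.9e-09. Some genes below that level fell further, such as Rap1gap2, given below.

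Thbs1, Vwf, Pf4 and Ppbp, proteins stored in platelet granules, fell as well, Pf4 from 16.5 ± 1.72 to 5.72 ± 0.932 CPM, Ppbp from 15.7 ± 1.38 to 5.59 ± 0.45 CPM, Thbs1 from 19.7 ± 4.37 to 6.3 ± 0.387 CPM and Vwf from 12.7 ± 1.29 to 5.25 ± 1.12 CPM. The 7 platelet and megakaryocyte markers summed to 56.8 to 67.2 CPM with IL-12 alone and to 22.9 to 28.9 CPM with TCM, and all 6 of those tested were lower. A part of platelet RNA in these 4 genes was not tested.

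**Figure D2:**
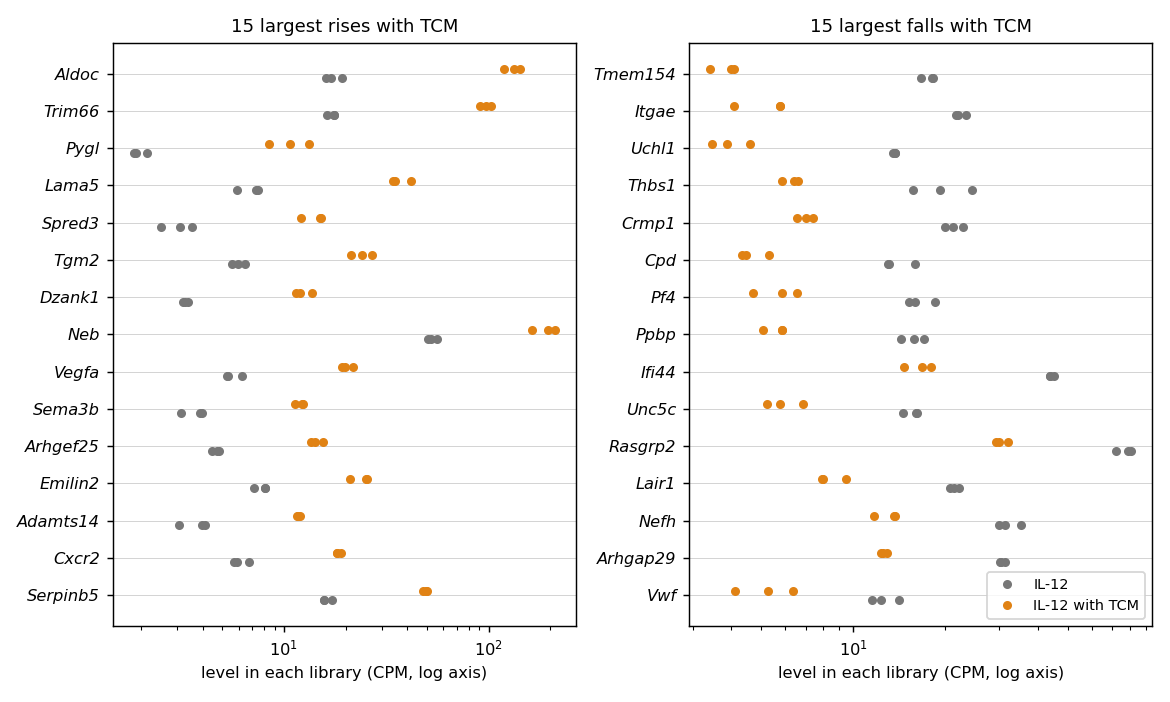
Level of the 15 largest rises (left) and 15 largest falls (right) in each library, in CPM on a log axis, with IL-12 alone in grey and IL-12 with TCM in orange. The 2 groups do not overlap for any of these 30 genes, since the choice of genes required it.

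Among the genes that moved most in CPM, Gzmb, which encodes the cytotoxic protease granzyme B, rose from 456 ± 82.3 to 1031 ± 81.8 CPM. Scd2, which desaturates fatty acids, rose from 1211 ± 26.1 to 2262 ± 53.5 CPM, Aldoa, the main aldolase, from 974 ± 31.9 to 1531 ± 117 CPM, and Plac8 from 954 ± 32.8 to 1495 ± 63.6 CPM. Ptprc, the CD45 phosphatase, rose from 2659 ± 84 to 3124 ± 29.2 CPM and Atp2b4, a calcium pump of the plasma membrane, from 482 ± 4.08 to 844 ± 61 CPM. Among the 10 largest falls in CPM, Flna, which cross-links actin, fell from 1236 ± 29.3 to 696 ± 58 CPM, Myh9, a non-muscle myosin, from 2593 ± 18.1 to 2245 ± 138 CPM, Vim, an intermediate filament, from 1116 ± 9.89 to 746 ± 49.1 CPM, and Actb from 7351 ± 297 to 6739 ± 556 CPM. Hmgb2 fell from 1404 ± 69.3 to 925 ± 18.2 CPM and Top2a, which untangles DNA in mitosis, from 1959 ± 56.5 to 1569 ± 96 CPM. The other 4 of the 10 were mt-Cytb, Ptma, Rpsa and Ppia. Aldoa missed the threshold in the 12-library fit. The call of Actb, at adjusted p = 0.045 (edgeR), was lost there, with upper-quartile scaling and without single libraries, replicates 1 and 2 of IL-12 alone and 2 and 3 of IL-12 with TCM.

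Of 23 glycolysis genes, 20 rose with TCM, 1 fell and 2 were not called, with a median log2 fold change of 0.39 against 0.01 for all genes. The members that rose serve glucose import, with Slc2a1 and Slc2a3 (log2 fold change 0.39 ± 0.044 and 0.69 ± 0.043), glucose phosphorylation, with Hk1 and Hk2 (0.18 and 0.37), and the committed step, with the phosphofructokinases Pfkl, Pfkm and Pfkp (0.31, 0.63 and 0.55) and their activators Pfkfb3 and Pfkfb4 (0.76 and 1.24). Lower in the pathway Tpi1, Gapdh, Pgk1, Pgam1, Eno1 and Pkm rose by 0.40, 0.27, 0.41, 0.36, 0.24 and 0.28. Slc16a3, which exports lactate, was at 63.2, 53.2 and 51.8 CPM with IL-12 alone and 154, 140.5 and 135 CPM with TCM. Pdk1, a kinase that inhibits pyruvate dehydrogenase, was at 61.1, 61 and 64.1 CPM with IL-12 alone and 106, 108 and 101.2 CPM with TCM. Neither overlapped between the groups. Ldha, which makes lactate, was at 1356 ± 70.4 to 1309 ± 89.1 CPM (log2 fold change -0.05 ± 0.048, not called), and Ldhb, the isoform that favours pyruvate, fell from 5.2 ± 0.4 to 3.97 ± 0.314 CPM, a call lost without replicate 2 of IL-12 alone or replicate 1 of IL-12 with TCM. Slc2a1, Slc2a3, Hk1, Hk2, Pfkl, Pfkm, Pfkp, Tpi1, Gapdh, Pgk1, Pgam1, Eno1, Pkm, Slc16a3, Pdk1 and Ldhb missed the threshold in the 12-library fit.

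Hypoxia response genes moved with glycolysis, 14 of 19 higher and 1 lower, with a median of 0.35. Hif1a, which encodes the oxygen-regulated subunit of HIF-1, was at 401, 348 and 379 CPM with IL-12 alone and 635, 603 and 607 CPM with TCM. All libraries with TCM were higher. Egln3 and Egln1, prolyl hydroxylases that mark HIF for degradation and are HIF targets themselves, rose from 54.4 ± 2.85 to 121 ± 0.968 CPM and 94.5 ± 3.44 to 135 ± 5.6 CPM. Bnip3, a mitophagy receptor, rose from 7.62 ± 0.705 to 16.5 ± 2.22 CPM, Ddit4, an inhibitor of mTORC1, from 85.6 ± 2.62 to 169 ± 4.43 CPM, and P4ha1, a collagen prolyl hydroxylase, from 54.7 ± 2.46 to 92.2 ± 2.24 CPM. Car12 fell from 14.3 ± 0.95 to 10.9 ± 0.998 CPM, and Kdm3a, a HIF-induced histone demethylase, was not called (log2 fold change -0.06 ± 0.042). The 12-library fit called 3 glycolysis and 2 hypoxia genes higher. Leaving replicate 3 of both IL-2 groups out of that fit, a choice made after seeing the data, gave 20 and 14. Egln3, Egln1, Bnip3, P4ha1 and Car12 missed the threshold in the 12-library fit.

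The promoters of 3 glycolysis genes are shown because these genes rose together. RefSeq (build GRCm38.p6) gave an entry for 22 glycolysis and 18 hypoxia response genes, and the 250 bases before each start were searched on both strands for ACGTG or GCGTG, the core of the HIF binding motif. It was present in 20 of the 22 (90.9%) and 17 of the 18 (94.4%), against 41.5% of all 27025 genes with an entry, and also in 19 of 27 DNA replication genes (70.4%), which fell. Every other list searched also lay above the share of all genes, from 52% of 25 proteasome genes to 80% of 10 genes of sterol uptake and control. The windows are on the gene's own strand with the core in capitals, at chr11:78323003-78323047 and chr11:120949020-120949064 and, for Pdk1, at chr2:71873126-71873170.
Aldoc: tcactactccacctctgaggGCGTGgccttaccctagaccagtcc
Slc16a3: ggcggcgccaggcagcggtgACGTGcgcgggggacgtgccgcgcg
Pdk1: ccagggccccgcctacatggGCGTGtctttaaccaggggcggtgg

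Sterol synthesis moved almost as a block. Of 20 genes of the pathway 19 rose and 1 fell, with a median log2 fold change of 0.93, and 7 rose at least 2-fold. The order along the pathway was uneven. The first steps, Acat2 and Hmgcs1, rose by 1.04 ± 0.041 and 1.07 ± 0.041. Mvd (ENSMUSG00000006517), which makes isopentenyl diphosphate, was at 58.6, 60.5 and 58.9 CPM with IL-12 alone and 158, 154 and 145 CPM with TCM. It rose most in the list and its groups did not overlap. Sqle, the squalene epoxidase, rose by 0.53 ± 0.039. Ebp, the sterol isomerase, was the member that fell (from 54.8 ± 1.48 to 49.98 ± 1.15 CPM), and it was not called with upper-quartile scaling, in the 12-library fit, without replicate 2 of IL-12 alone or without replicate 3 of IL-12 with TCM.

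Sterol uptake and its control moved less. Of 14 genes 9 rose and 2 fell. Insig1, which retains SREBP in the endoplasmic reticulum, rose from 186 ± 4.86 to 271 ± 2.58 CPM. Scap, which escorts SREBP to the Golgi, fell from 76.3 ± 0.92 to 64.6 ± 2.55 CPM, and Srebf1 was not called (log2 fold change -0.04 ± 0.040). Of 10 tested genes of cholesterol efflux and targets of the receptor LXR 4 rose and 4 fell, with a median of 0.17. In the 12-library fit 1 was higher and 3 lower. Those that rose were Arl4c, Soat1, Lpcat3 and Soat2. Among those that fell was the exporter Abca1, at 37, 38.8 and 42.4 CPM with IL-12 alone and 21.5, 19 and 20.4 CPM with TCM. Abcg1, the second exporter, fell from 54.2 ± 3.9 to 27 ± 1.59 CPM, and the groups overlapped for neither gene. Fatty acid synthesis rose in 11 of 19 genes and fell in 1. Scd1, the delta-9 desaturase, rose from 97.4 ± 4.5 to 239 ± 3.65 CPM, Fasn from 537 ± 18 to 763 ± 24.4 CPM and Slc25a1, which exports citrate from mitochondria, from 32.4 ± 1.39 to 57.2 ± 0.743 CPM. The fall was Elovl7, from 3.48 ± 0.296 to 2.38 ± 0.343 CPM. Of 18 fatty acid oxidation genes 11 rose and 6 fell. Acadl, the long-chain dehydrogenase, rose from 232 ± 5.37 to 345 ± 9.3 CPM, while Hadha and Hadhb, the subunits of the trifunctional protein, fell by 0.20 and 0.26 on the log2 scale. In the 12-library fit 6 genes of this list were higher and 3 lower.

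Promoters of 2 sterol genes are shown for the motifs tied to SREBP and to its partner NF-Y. An entry was found for 15 of the 20 synthesis genes. The NF-Y core CCAAT, searched on both strands, lay in the 250 bases before the start of 14 of these 15 (93.3%), against 37.5% of all 27025 genes. It also lay in 18 of 27 DNA replication genes (66.7%), which fell, and in 8 of 22 glycolysis genes (36.4%). The sterol response element TCACNCCAC lay in 1 of the 15, Hmgcs1, against 1.22% of all genes, 2 of 22 glycolysis genes, 0 of 17 fatty acid synthesis genes and 0 of 10 genes of sterol uptake and control. The Hmgcs1 window at chr13:119690194-119690242 has the sterol response element in capitals, and the Mvd window at chr8:122443425-122443469, also on the gene's own strand, has the CCAAT box.
Hmgcs1: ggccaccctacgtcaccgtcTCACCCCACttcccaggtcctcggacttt
Mvd: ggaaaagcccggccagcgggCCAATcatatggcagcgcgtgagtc

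Cell division genes were lower with TCM. Of 34 DNA replication genes 34 fell, each by less than 2-fold, with a median log2 fold change of -0.46. Mcm5 (ENSMUSG00000005410), a subunit of the replicative helicase, was at 543, 521 and 524 CPM with IL-12 alone and 329.9, 309 and 313 CPM with TCM. All libraries with TCM were lower. Its partners Mcm2, Mcm3, Mcm4, Mcm6 and Mcm7 fell by 0.61, 0.46, 0.72, 0.47 and 0.59 on the log2 scale. Pola1, the catalytic subunit of the priming polymerase, fell from 134 ± 7.13 to 83.6 ± 4.65 CPM, Cdc6, which loads the helicase, from 98.6 ± 2.68 to 63.6 ± 2.72 CPM, and Uhrf1, which copies DNA methylation to the new strand, from 529 ± 23.3 to 354 ± 21.1 CPM. Nucleotide synthesis fell in 21 of 22 genes. Tyms, which makes thymidylate, was at 112, 108 and 104 CPM with IL-12 alone and 53, 52.5 and 49.4 CPM with TCM. Its groups stood apart, and the log2 fold change of -1.07 ± 0.047 was the lowest of the list. The purine enzymes Gart and Atic fell by 0.67 and 0.60 on the log2 scale. Impdh1 rose, from 77.8 ± 2.65 to 89.97 ± 1.01 CPM, while its isoform Impdh2 fell from 296 ± 7.7 to 248 ± 16 CPM. Impdh1 missed the threshold in the 12-library fit.

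Mitosis genes fell in 25 of 28, with a median of -0.31. Ccnb1, the mitotic cyclin, fell from 213 ± 7.36 to 149 ± 9.52 CPM and Kif20a, a kinesin of the central spindle, from 151 ± 4.14 to 104 ± 5.25 CPM. Cenpa and Cenpf, of the centromere, were not called (log2 fold changes -0.06 ± 0.041 and -0.10 ± 0.047). Of 22 G1 cyclins, kinases and inhibitors 11 fell and 4 rose. Ccne2 and Ccne1, the cyclins of S phase entry, fell from 36.2 ± 4.22 to 21.9 ± 0.463 CPM and 86.6 ± 4.3 to 67.1 ± 1.83 CPM, and the atypical repressors E2f7 and E2f8 fell by 0.57 and 0.58 on the log2 scale. Ccnd2, a D cyclin, rose from 236 ± 13.3 to 408 ± 24.8 CPM, and Rbl2, the pocket protein p130 of resting cells, from 150.5 ± 1.17 to 197 ± 12.3 CPM. Among 19 p53 target genes 10 fell and 3 rose, 1 of these in the 12-library fit. Trp53 fell from 201 ± 8.55 to 145 ± 7.69 CPM, and the death genes Bbc3 and Pmaip1 from 19.7 ± 0.406 to 11.9 ± 0.488 CPM and 63.5 ± 1.3 to 39.7 ± 1.43 CPM, while Cdkn1a, the p21 inhibitor, was not called (log2 fold change 0.05 ± 0.068).

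Replication promoters are shown for the E2F motif. Of 27 DNA replication genes with a RefSeq entry, 9 held TTTGGCGC, TTTCGCGC, TTTGCCGC or TTTCCCGC on either strand in the 250 bases before the start (33.3%), against 2.16% of all 27025 genes and 0 of 22 glycolysis genes. The windows on the gene's own strand, with the match in capitals, lie at chr8:75109336-75109383 for Mcm5, chr5:138172021-138172068 for Mcm7 and chr11:98907993-98908040 for Cdc6.
Mcm5: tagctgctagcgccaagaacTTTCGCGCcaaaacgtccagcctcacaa
Mcm7: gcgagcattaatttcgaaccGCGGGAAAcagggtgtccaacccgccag
Cdc6: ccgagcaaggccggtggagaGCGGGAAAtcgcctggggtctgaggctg

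Ribosome production fell without a fall of the ribosomal proteins as a group. Of 34 genes of nucleolar ribosome biogenesis and MYC 30 fell and 2 rose, with a median of -0.34, and 1 was higher in the 12-library fit. Utp20, a scaffold of the small subunit processome, was at 84.2, 77.5 and 76.7 CPM with IL-12 alone and 37.6, 32.1 and 37.1 CPM with TCM, without overlap. Mybbp1a, a nucleolar regulator of ribosomal RNA synthesis, fell from 288 ± 13.3 to 176 ± 12.3 CPM, Dkc1, the pseudouridine synthase, from 189 ± 9.1 to 117 ± 2.86 CPM, and Fbl, the ribosomal RNA methylase, from 161 ± 6.07 to 106 ± 3.31 CPM. Myc itself was called slightly higher, from 139 ± 2.95 to 149 ± 2.23 CPM, but not with limma, without a filter on low counts, in the fits with IL-2 libraries, or without replicate 1 or 3 of IL-12 alone or 2 or 3 of IL-12 with TCM. Of 41 cytosolic ribosomal protein genes 8 fell and 2 rose, both shares below those of all genes, and the median of -0.01 turned to 0.02 with upper-quartile scaling. Without replicate 2 of IL-12 with TCM 14 were called lower, in the 12-library fit 2 lower and 0 higher, and the genes have many near-identical copies, so that their counts are uncertain. Mitochondrial ribosomal proteins fell in 14 of 27 and rose in 0, and initiation and elongation factors fell in 15 of 29 and rose in 4, or 2 without replicate 3 of IL-12 alone. The 12-library fit called 10 of these factors lower and 0 higher. Eif4ebp1, which holds back cap-dependent translation, rose from 12.8 ± 0.737 to 17.5 ± 1.71 CPM. Eif4ebp1 missed the threshold in the 12-library fit.

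Protein quality control was also lower. Of 31 proteasome genes 28 fell and 0 rose, each by less than 0.41 on the log2 scale except Psmd1, which fell by 0.41. Of 21 TRiC and heat shock chaperone genes 14 fell and 1 rose, or 0 in the 12-library fit. The TRiC subunits Cct3 and Cct6a fell by 0.44 and 0.44 and the mitochondrial chaperones Hspa9 and Hspd1 by 0.43 and 0.41. Of 24 unfolded protein response genes 17 fell, among them Calr, a calcium-binding chaperone, from 654 ± 19.9 to 461 ± 28.7 CPM, and Sdf2l1 from 64.8 ± 2.09 to 44.2 ± 0.753 CPM. Xbp1 and Ern1, the transcription factor and the kinase of one arm of the response, rose from 83.1 ± 2.05 to 124 ± 6.53 CPM and 42.3 ± 2.61 to 49.7 ± 2.86 CPM. With 12 libraries 9 genes of this list were called lower. Among 19 targets of ATF4, the factor of amino acid stress, 9 rose and 3 fell. Atf4 rose from 144 ± 3.91 to 188 ± 8.66 CPM and Ppp1r15a from 24.7 ± 1.28 to 32.9 ± 1.75 CPM, while the serine enzymes Phgdh and Shmt2 fell from 214 ± 11.9 to 169 ± 9.69 CPM and 169.6 ± 11.4 to 129 ± 3.93 CPM. Ern1 and Phgdh missed the threshold in the 12-library fit.

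In the polyamine pathway Smox, which oxidises spermine, rose from 67.1 ± 2.2 to 140.3 ± 2.3 CPM, and Srm, which makes spermidine, fell from 39.99 ± 2.91 to 27.6 ± 2.03 CPM. Among 15 amino acid transporters 8 fell and 3 rose. Slc7a1, a cationic transporter, fell from 125 ± 9.83 to 97.3 ± 7.33 CPM, and Slc7a5, the leucine transporter, rose from 126 ± 10.7 to 151 ± 5.9 CPM. With 12 libraries in the fit 2 of these transporters were lower, and 5 were lower without replicate 3 of IL-12 with TCM. Of 19 aminoacyl-tRNA synthetases 8 fell and 5 rose, and 3 rose when replicate 2 or 3 of IL-12 alone or replicate 1 or 2 of IL-12 with TCM was left out, and 1 in the 12-library fit. Slc7a5 missed the threshold in the 12-library fit.

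Mitochondrial genes were called lower more often than higher, with members moving both ways. Of 28 genes of the citric acid cycle and pyruvate entry 10 fell and 5 rose. Idh1, the cytosolic NADPH-forming isocitrate dehydrogenase, rose from 17.9 ± 0.868 to 30.8 ± 2.09 CPM, while Fh1, fumarate hydratase, and Me2, a malic enzyme, fell by 0.40 and 0.40 on the log2 scale. Only 3 were called higher without replicate 3 of IL-12 alone, without replicate 1 of IL-12 with TCM or in the 12-library fit. Oxidative phosphorylation genes of the nucleus fell in 18 of 41 and rose in 4, or 2 with 12 libraries fitted. Of 13 genes encoded in the mitochondria 9 fell, with mt-Cytb from 2162 ± 69.2 to 1582 ± 42.3 CPM, and mt-Co1 rose from 6587 ± 268 to 7728 ± 296 CPM. With 12 libraries fitted 4 of the 13 were lower. The mitochondrial share of all counts was 1.46 to 1.60% with IL-12 alone and 1.52 to 1.62% with TCM, and nuclear copies make counts of these genes uncertain.

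Of 25 NRF2 and thiol antioxidant genes 14 fell and 6 rose. Nfe2l2, which encodes NRF2, fell from 50.2 ± 2.35 to 38.2 ± 1.67 CPM, and its targets Gclc and Nqo1 fell from 82.5 ± 1.14 to 64.4 ± 4.43 CPM and 3.97 ± 0.742 to 2.26 ± 0.128 CPM. Gpx4, the peroxidase that protects membrane lipids, rose from 151 ± 1.69 to 207 ± 6.02 CPM and Prdx5 from 67.8 ± 2.7 to 88 ± 8.09 CPM. Of 15 genes of iron handling 10 rose and 3 fell. Fth1, the ferritin heavy chain that stores iron, was at 595, 584 and 589.8 CPM with IL-12 alone and 883, 883 and 854 CPM with TCM. Tfrc, the transferrin receptor that imports iron, was at 466, 416 and 432 CPM with IL-12 alone and 313, 282 and 317 CPM with TCM. The 2 genes moved in opposite directions, neither with overlap. Fbxl5, an iron sensor of the ubiquitin system, rose from 94.3 ± 1.94 to 171 ± 2.13 CPM, and Slc11a2, an iron transporter, from 43.1 ± 0.392 to 69.9 ± 2.12 CPM. The ferritin light chain gene Ftl1 fell from 104 ± 2.35 to 81.4 ± 2.55 CPM, and both ferritin genes have processed copies that make the counts uncertain. Prdx5 missed the threshold in the 12-library fit.

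**Figure D3:**
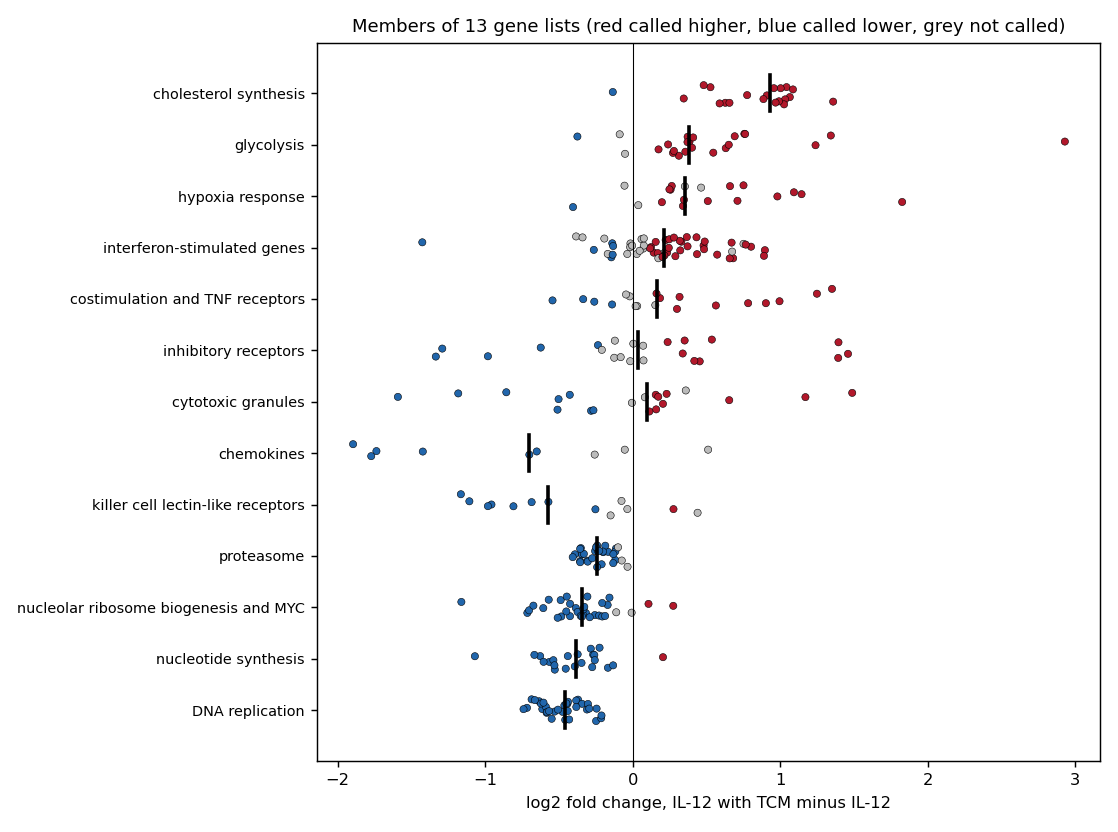
Log2 fold change with TCM of every tested member of 13 gene lists, red for called higher, blue for called lower and grey for not called, with a bar at the list's median. Sterol synthesis and glycolysis lie right of 0 and DNA replication and nucleotide synthesis left of 0, while inhibitory receptors and cytotoxic granule genes spread to both sides.

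Cytotoxic genes split. Of 20 granule and death-ligand genes 9 rose and 8 fell. Prf1 (ENSMUSG00000037202), which encodes the pore protein perforin, was at 36.7, 34 and 33.4 CPM with IL-12 alone and 102, 107 and 85.5 CPM with TCM. Gzmb, given above, was at 551, 421 and 398 CPM with IL-12 alone and at 1114, 1027 and 951 CPM with TCM. All libraries with TCM were higher for both genes, with log2 fold changes of 1.49 ± 0.063 and 1.17 ± 0.076. Fasl, the ligand of the death receptor Fas, rose from 37.9 ± 1.05 to 59.8 ± 1.54 CPM. The other granzymes called were lower, Gzma from 128 ± 4.77 to 95.1 ± 6.2 CPM, Gzmk from 12.8 ± 1.07 to 8.9 ± 0.602 CPM and Gzmm from 2.04 ± 0.261 to 0.918 ± 0.217 CPM, with Gzmc, Gzmd and Gzme lower as well (log2 fold changes -0.28, -0.86 and -1.59). The granzyme genes b to g are near-identical in part, which makes the low counts of Gzmc, Gzmd and Gzme uncertain. The 12-library fit called 4 genes of the list higher, Prf1 and Gzmb among them. Gzmc and Gzmd missed the threshold in the 12-library fit.

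Ifng, the interferon gamma gene that IL-12 induces, rose from 62 ± 4.41 to 80.1 ± 4.67 CPM. Of 17 cytokine and TNF-family ligand genes 8 fell (5 in the 12-library fit) and 6 rose. Csf1, the macrophage growth factor, rose from 149 ± 7.23 to 265 ± 11.9 CPM and Lif from 3.89 ± 0.194 to 7.04 ± 0.902 CPM, while Ltb, lymphotoxin beta, fell from 589.98 ± 19 to 414 ± 22 CPM, and the ligands Tnfsf4, Tnfsf8 and Tnfsf14 fell from 14.8 ± 1.21 to 7.49 ± 0.175 CPM, 40.9 ± 4.75 to 27.2 ± 4.64 CPM and 7.35 ± 0.258 to 4.16 ± 0.0798 CPM. Chemokines fell in 6 of 9 tested and rose in 0, with a median of -0.70. Ccl5, a chemokine of memory and effector cells, was at 64.2, 72.3 and 71.3 CPM with IL-12 alone and 41.9, 48.9 and 41.3 CPM with TCM. Xcl1, which attracts cross-presenting dendritic cells, was at 18.1, 15.7 and 16.9 CPM with IL-12 alone and 10.8, 9.79 and 10.7 CPM with TCM. Both were lower in all libraries with TCM. Ccl3 fell from 5.06 ± 0.296 to 1.88 ± 0.306 CPM, Ccl4 from 6.88 ± 0.537 to 2.08 ± 0.505 CPM and Cxcl10, a ligand of Cxcr3, from 9.65 ± 1.49 to 2.62 ± 0.272 CPM. With a mean of at least 5 CPM required, 3 chemokines were called lower, since fewer were tested.

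Inhibitory receptors rose in 9 of 22 and fell in 5, or 3 in the 12-library fit. Lag3 (ENSMUSG00000030124), which binds MHC class II, was at 137, 140.1 and 136 CPM with IL-12 alone and 354, 391 and 343 CPM with TCM. Entpd1, the CD39 enzyme that breaks down extracellular ATP, was at 29.2, 26.8 and 27.9 CPM with IL-12 alone and 82, 76.9 and 72.4 CPM with TCM. Both groups of values were separate, with log2 fold changes of 1.40 ± 0.045 and 1.46 ± 0.055. Ctla4 rose from 165 ± 10.5 to 239.6 ± 9.41 CPM, Havcr2, which encodes TIM-3, from 7.72 ± 0.991 to 10.7 ± 1 CPM, Tigit from 14.6 ± 0.422 to 18.6 ± 0.469 CPM and Pdcd1, which encodes PD-1, from 41.5 ± 1.8 to 48.7 ± 1.16 CPM. The ligand genes Cd274 and Pdcd1lg2 rose too, from 22.5 ± 2.14 to 29.998 ± 2.64 CPM and 2.55 ± 0.112 to 6.67 ± 0.72 CPM. Falls were Lair1, Cd96 from 209.5 ± 1.96 to 136 ± 7.45 CPM, Klrg1, a receptor of terminal effectors, from 3.88 ± 0.481 to 1.96 ± 0.354 CPM, Btla and Ceacam1. Havcr2, Pdcd1, Btla and Ceacam1 missed the threshold in the 12-library fit.

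Costimulatory and TNF receptor genes rose in 10 of 19 and fell in 4, or 2 in the 12-library fit. Tnfrsf8, which encodes CD30, rose from 26.1 ± 0.819 to 66.9 ± 4.71 CPM, Tnfrsf4 (OX40) from 9.93 ± 0.247 to 23.6 ± 1.82 CPM, Tnfrsf18 (GITR) from 16.6 ± 1.14 to 33.4 ± 2.57 CPM, Tnfrsf9 (CD137) from 126 ± 12.5 to 217 ± 19.8 CPM and Slamf7 from 84.7 ± 2.4 to 158 ± 4.25 CPM. Slamf6, a receptor of less differentiated cells, fell from 47.2 ± 3.46 to 32.2 ± 1.99 CPM. Killer cell lectin-like receptors fell in 8 of 13 (5 in the 12-library fit) and rose in 1. Klrd1, which encodes CD94, fell from 199 ± 14.2 to 167 ± 14.9 CPM, and Klrk1, which encodes the activating receptor NKG2D, rose from 134 ± 3.82 to 163 ± 5.27 CPM. The Klra genes that fell were at most at 6.26, 5.81 and 6.47 CPM with IL-12 alone, the values of Klra7, and share sequence with each other. The NK cell markers Ncr1, Klrb1c and Klra8 were below 1 CPM in all 6 libraries. The 6 NK markers summed to 149 to 159 CPM with IL-12 alone and to 114 to 121 CPM with TCM. Most of that sum was Gzma, given above among the cytotoxic genes. Nearly all of the rest was Eomes, given below among the transcription factors, so that the lower sum mainly repeats the fall of Gzma. Tnfrsf9, Slamf7, Slamf6 and Klrd1 missed the threshold in the 12-library fit.

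Enzymes and receptors of extracellular nucleotides rose in 9 of 19 and fell in 6. Cd38 and Bst1, ectoenzymes that consume NAD, rose from 8.27 ± 0.78 to 19.6 ± 0.455 CPM and 30.2 ± 0.828 to 62.9 ± 2.84 CPM, Enpp1 from 9.59 ± 0.0954 to 18.4 ± 1.22 CPM and Adora2a, the adenosine receptor, from 129 ± 2.03 to 165 ± 3.38 CPM. Nt5e, the CD73 enzyme that makes adenosine, was not called (log2 fold change -0.12 ± 0.065). Adk, the kinase that clears adenosine inside the cell, fell from 32 ± 3.04 to 19.2 ± 1.43 CPM.

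Cytokine receptors rose in 9 of 27 and fell in 8, or 5 and 4 in the 12-library fit. These shares were 33.3% and 29.6%, against 25.5% and 23.4% of all genes. Il12rb1, one chain of the IL-12 receptor, was at 83.7, 81.1 and 77.9 CPM with IL-12 alone and 139, 131 and 134 CPM with TCM. The second chain, Il12rb2, rose from 306 ± 9.93 to 348 ± 19.5 CPM, and Stat4, which carries the signal, from 77.8 ± 2.08 to 83.7 ± 1.82 CPM, each by a small margin. Neither was called in the 12-library fit, and the call of Stat4, at adjusted p = 0.043 (edgeR), was also lost with DESeq2, with limma and without any 1 of 5 libraries, replicate 3 of IL-12 with TCM being the exception. Il4ra rose from 109 ± 7.94 to 205 ± 7.88 CPM, Il21r from 123 ± 2.67 to 193 ± 5.92 CPM and Il7r, the receptor of survival cytokine IL-7, from 349.5 ± 14.9 to 502 ± 4.43 CPM. Tgfbr1 fell from 24.2 ± 1.34 to 17.6 ± 0.968 CPM and Il1rl1, the IL-33 receptor, from 62.6 ± 1.63 to 39.98 ± 3.73 CPM. Downstream of cytokine receptors 16 of 24 STAT, SOCS and PIM genes rose and 3 fell. The feedback inhibitors Socs1 and Socs3 rose from 44.9 ± 2.76 to 71.8 ± 9.58 CPM and 77.9 ± 4.07 to 121 ± 4.05 CPM, Bcl3 from 25.7 ± 1.42 to 45.1 ± 1.77 CPM and Stat3 from 318 ± 7.84 to 386 ± 11.3 CPM. Pim2, a survival kinase, was at 632, 668 and 679 CPM with IL-12 alone and 376, 401 and 396 CPM with TCM, and its groups did not overlap. Stat3 missed the threshold in the 12-library fit.

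Interferon-stimulated genes rose in 31 of 55 and fell in 6, with a median of 0.21. Stat2, which carries interferon signals, rose from 66.2 ± 5.58 to 98.3 ± 4.34 CPM. Usp18, a brake on interferon signalling, rose from 191 ± 3.41 to 258 ± 4.82 CPM and Slfn8 from 51.2 ± 3.29 to 81.2 ± 2.51 CPM. Ifi44 went against the list, as given above, and Gbp2, a GTPase of host defence, fell from 1286 ± 15 to 1071 ± 41.1 CPM. Without replicate 3 of IL-12 with TCM 3 genes were called lower, and 2 in the 12-library fit. MHC class I and antigen processing genes rose in 9 of 21 and fell in 5, with Nlrc5, the activator of class I genes, from 377 ± 21.7 to 460.5 ± 15.5 CPM, and H2-D1 not called (log2 fold change 0.04 ± 0.041), although class I genes are near-identical and their counts uncertain.

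T cell receptor genes moved little. Of 27 genes 14 rose and 3 fell, each rise by at most 0.51 on the log2 scale. Cd8a rose from 1022 ± 15.4 to 1289.8 ± 24.5 CPM and Themis from 286 ± 10.1 to 395 ± 18.3 CPM, and Cd8b1, Cd3d and Lat were not called. Ptpn6, the SHP-1 phosphatase that dampens receptor signals, fell from 224 ± 5.17 to 159 ± 3.86 CPM. The 12-library fit called 7 of the genes higher. Among 22 AP-1, EGR and NR4A factors 8 rose (5 in the 12-library fit) and 6 fell. Batf3 rose from 22.5 ± 1.03 to 40.7 ± 1.12 CPM, and Fosb, Egr2 and Egr3, immediate early genes of receptor signals, fell from 7.64 ± 2.12 to 1.63 ± 0.408 CPM, 5.29 ± 0.21 to 2.24 ± 0.216 CPM and 12.9 ± 0.774 to 6.85 ± 0.253 CPM. NF-kappaB genes fell in 11 of 23 (7 in the 12-library fit) and rose in 3, with Relb from 43.4 ± 3.38 to 28.6 ± 0.426 CPM, Nfkb2 from 117 ± 12.3 to 82.8 ± 0.938 CPM and the inhibitor Nfkbia from 82.8 ± 7.45 to 55.6 ± 3.56 CPM. Of the MAP kinase brakes Dusp2 fell from 142 ± 1.23 to 76 ± 4.65 CPM and Spred2 rose from 13.6 ± 0.574 to 24.3 ± 1.02 CPM.

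Transcription factors of effector and memory cells divided, 13 of 37 higher (35.1%) and 12 lower (32.4%), against 25.5% and 23.4% of all genes. Nfil3, a basic leucine zipper factor, rose from 22.9 ± 0.741 to 53.2 ± 3.13 CPM, Hopx from 105 ± 0.7 to 176 ± 12.2 CPM, Prdm1, which encodes BLIMP-1, from 12.3 ± 1.51 to 19.6 ± 1.99 CPM, Runx3, a factor of cytotoxic cells, from 252 ± 0.143 to 358 ± 19.1 CPM, and Tbx21, which encodes T-bet, from 125 ± 2.78 to 149 ± 6.85 CPM. Klf2, which keeps T cells recirculating, was at 42.9, 39.1 and 46.7 CPM with IL-12 alone and 15.9, 19.1 and 20.8 CPM with TCM. Tcf7, which encodes TCF-1 of memory precursors, was at 399, 421 and 448 CPM with IL-12 alone and 312, 309.6 and 338 CPM with TCM. Both were lower in all libraries with TCM. Zfp683, which encodes HOBIT of tissue-resident cells, fell from 9.5 ± 0.846 to 2.83 ± 0.0859 CPM, Id3 from 5.65 ± 0.318 to 2.9 ± 0.4 CPM, Irf4 from 99.95 ± 4.84 to 78.4 ± 4.36 CPM and Eomes from 25.7 ± 1.47 to 20.9 ± 2.55 CPM. The 12-library fit called 7 higher and 5 lower, and 13 and 12 without replicate 3 of both IL-2 groups. Prdm1, Tbx21, Tcf7 and Eomes missed the threshold in the 12-library fit.

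Homing receptors divided. S1pr1, which guides exit from tissue, fell from 108 ± 6.11 to 74 ± 2.4 CPM, while Ccr7, a lymph node homing receptor, rose slightly, from 219 ± 10.4 to 235 ± 9.4 CPM. Cxcr3, the receptor of effector cells for Cxcl10, fell from 71.8 ± 3.98 to 41.5 ± 3.02 CPM. Ly6c2 fell from 313 ± 21.3 to 169 ± 12.1 CPM, and its paralog makes the count uncertain. Of 17 chemokine and lipid receptors 8 fell and 6 rose, and 2 rose without replicate 2 of IL-12 with TCM and 1 in the 12-library fit. Txnip, an inhibitor of glucose uptake, rose from 357 ± 21.8 to 674 ± 34.6 CPM. Of 25 integrin and adhesion genes 12 fell and 9 rose. Cd44 fell from 146 ± 3.34 to 80.03 ± 3.43 CPM, Itgb1 from 161 ± 1.79 to 124 ± 2.15 CPM and Icam2 from 22.1 ± 0.192 to 10.5 ± 1.64 CPM, and Itgb2, the common chain of LFA-1, rose from 457 ± 7.65 to 555 ± 27.6 CPM. Ccr7 missed the threshold in the 12-library fit.

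Regulators of Rap1, the GTPase that activates integrins, included a large fall. Rap1gap2 (ENSMUSG00000038807), which switches Rap1 off, was at 9.29, 10.2 and 10.4 CPM with IL-12 alone and 0.465, 0.251 and 0.576 CPM with TCM. Its groups lay far apart, with a log2 fold change of -4.50 ± 0.19, and the levels with TCM rest on few counts. Of 17 regulators 10 rose and 3 fell, and 5 were higher in the 12-library fit. Sipa1l1, another Rap inhibitor, rose from 335 ± 7.13 to 555 ± 28.3 CPM and Rapgef4, an activator that responds to cyclic AMP, from 8.88 ± 1.19 to 17.6 ± 0.663 CPM. Rasgrp2, outside that list, fell as given above.

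Genes of TGF-beta signalling were even, 10 of 28 higher and 10 lower. Ldlrad4, Pmepa1, Skil and Ski, inhibitors of the pathway that TGF-beta itself induces in part, fell from 14.5 ± 0.834 to 6.16 ± 0.485 CPM, 18.6 ± 1.72 to 12 ± 0.722 CPM, 98.4 ± 2.77 to 65.5 ± 4.37 CPM and 89.4 ± 2.34 to 64 ± 0.721 CPM. Itgae, also known as a TGF-beta target in T cells, fell as given above. Eng, a coreceptor, rose from 18.9 ± 0.556 to 26.2 ± 1.68 CPM, and Ltbp3, Bmpr2, Smad5 and Furin were also called higher. The log2 effects of Ltbp3, Bmpr2 and Furin were 1.64, 0.76 and 0.24 in the 12-library fit. Activity of the TGF-beta pathway was not tested. Matrix genes rose in 6 of 12 and fell in 3, or 1 in the 12-library fit. Beside Lama5, the laminin chain Lamc1 rose from 58.7 ± 1.88 to 93 ± 5.56 CPM, Nid2 from 1.63 ± 0.0949 to 4.77 ± 0.349 CPM, Agrn from 3.53 ± 0.663 to 8.2 ± 0.301 CPM and Timp2, an inhibitor of matrix proteases, from 8.99 ± 0.312 to 21.9 ± 1.96 CPM. The stromal markers Col1a1, Col1a2, Col3a1, Dcn, Lum and Pdgfra were below 1 CPM in all 6 libraries. The 7th stromal marker, Pdgfrb, the only one tested, rose from 0.391 ± 0.117 to 0.777 ± 0.244 CPM, a call lost with DESeq2, with limma on log2(CPM + 5), without replicate 2 of IL-12 alone and without replicate 3 of IL-12 with TCM. All 7 summed to 0.782 to 1.36 CPM with IL-12 alone and to 1.41 to 2.3 CPM with TCM. The part of stromal cells in the matrix genes was not tested. Pdgfrb missed the threshold in the 12-library fit.

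Genes of the BCL2 family and of cell death, which both protect and kill, rose in 15 of 27 and fell in 4. Bcl2l1, which encodes BCL-XL, rose from 40.1 ± 1.92 to 53.5 ± 3.42 CPM, Bcl2 from 134 ± 4.04 to 161 ± 3.65 CPM and the death receptor Fas from 38.5 ± 1.05 to 52.7 ± 0.834 CPM, while Bbc3 and Pmaip1, which promote death, fell as given above. Of 39 DNA and histone methylation enzymes 11 rose (6 in the 12-library fit) and 13 fell. These shares were 28.2% and 33.3%, against 25.5% and 23.4% of all genes, with a median of 0.00. Kdm5b, which removes methyl groups from histone H3, rose from 37.1 ± 1.08 to 74.5 ± 1.54 CPM and Tet1, which oxidises methylated DNA, from 5.57 ± 0.788 to 12.8 ± 1.03 CPM. Dnmt1, the maintenance methylase, fell from 667 ± 2.65 to 542 ± 30.9 CPM and Prmt1, an arginine methylase, from 133 ± 10.4 to 89.4 ± 1.76 CPM. Splicing genes fell in 17 of 36 and rose in 5, or 9 and 3 in the 12-library fit, and U2af2 fell from 346 ± 10.8 to 246 ± 4.11 CPM. Of 31 lysosome and autophagy genes 8 rose (5 in the 12-library fit) and 6 fell, close to the shares of all genes, and the median of -0.01 turned to 0.02 with upper-quartile scaling. Lamp1 fell from 112 ± 2.27 to 78.7 ± 1.24 CPM and Ctsd, cathepsin D, rose from 266 ± 1.45 to 353 ± 22.7 CPM.

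**Figure D4:**
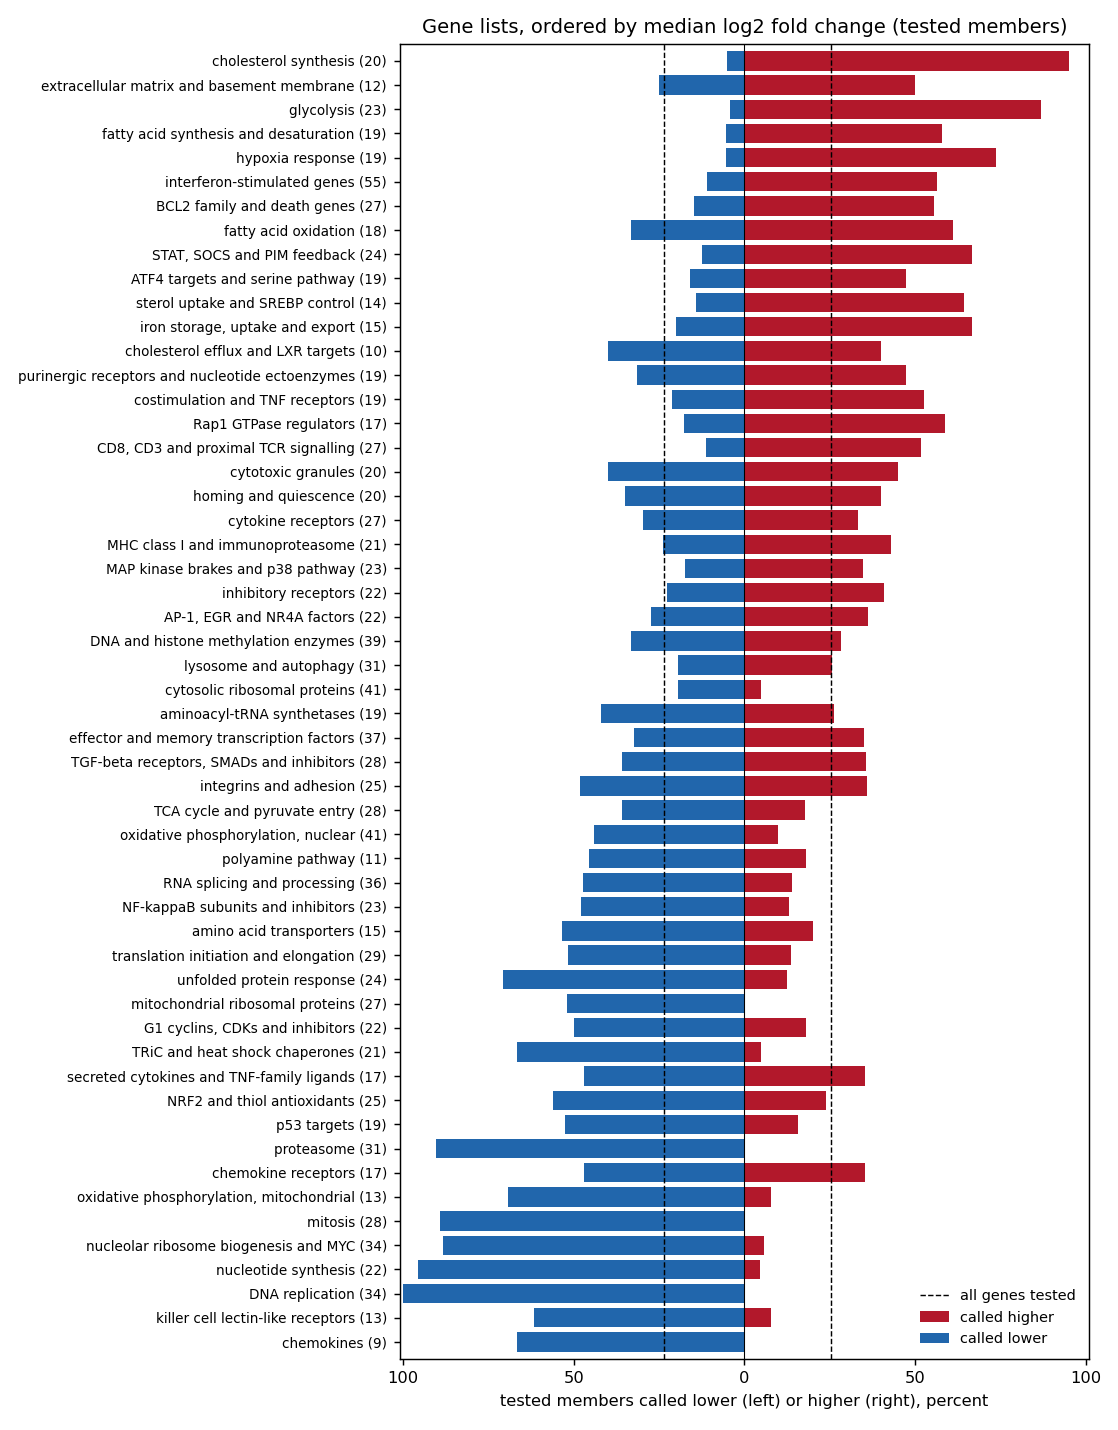
Share of the tested members of each gene list called higher (right, red) or lower (left, blue) with TCM, in percent, ordered by median log2 fold change, with the number tested in brackets. Dashed lines give the shares of all genes, 25.5% higher and 23.4% lower, which the bars of cytosolic ribosomal proteins do not reach.

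Markers of other cells moved in part. Markers of CD4 and regulatory T cells summed to 172 to 192 CPM with IL-12 alone and to 265 to 282 CPM with TCM, with 4 of 5 tested higher. Most of that sum was Ctla4, given above among the inhibitory receptors, at 155 to 176 and 231 to 249 CPM. Cd40lg and Foxp3 were below 1 CPM, and Cd4 rose from 0.561 ± 0.184 to 2.35 ± 0.265 CPM. Zbtb7b was called higher too, at 14.8, 14.2 and 14.7 CPM with IL-12 alone and 28.5, 26.8 and 24.8 CPM with TCM. So was Izumo1r, at 0.993, 1.04 and 1.26 CPM with IL-12 alone and 2.64, 2.61 and 2.54 CPM with TCM. Gamma delta T cell markers summed to 141 to 160 and 103 to 105 CPM, and 4 of 5 fell. B cell markers summed to 89.3 to 91.1 and 67.6 to 71.7 CPM, with Ms4a1 and Pax5 below 1 CPM. Of 4 tested 2 fell and 1 rose. The rise was Cd79b, at 4.48, 5.1 and 4.62 CPM with IL-12 alone and 6.57, 7.18 and 5.28 CPM with TCM. It was not called in every fit with 1 library left out. Ighm made up most of the B cell sum, at 78.7 to 83 and 57.2 to 61.4 CPM, and missed the threshold in the 12-library fit. Monocyte and macrophage markers summed to 5.92 to 7.88 and 9.05 to 10.1 CPM, 8 of 9 below 1 CPM. Erythroid, neutrophil and hepatocyte markers summed to at most 1.78 CPM in any library. The part of other cells in the results above was not tested.

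Whether TCM acted differently in IL-12 than in IL-2 was tested as the difference of the 2 effects over all 12 libraries. The difference was called for 251 of 15897 genes (1.58%), 189 with a higher effect in IL-12 (1.19%) and 62 with a lower one (0.39%). The count depended on replicate 3 of the IL-2 groups, and without replicate 3 of both 2105 of 15939 genes were called (13.2%). Leaving out 1 library gave 1164 without replicate 3 of IL-2 with TCM, but 275 without replicate 3 of IL-2. It gave 185 without replicate 1 of IL-2 and 105 to 121 without any one of the 6 IL-12 libraries. Without replicate 2 of IL-2 or replicate 1 or 2 of IL-2 with TCM it gave 142 to 149. The fold changes below come from the 12-library fit.

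Trim66 had the largest difference. It was at 1.37 ± 0.582 CPM in IL-2 and 0.969 ± 0.297 CPM in IL-2 with TCM, and at 17.8 ± 0.906 CPM and 101.04 ± 6.55 CPM in IL-12. The difference of the log2 effects was 3.04 ± 0.33 (SE), with an adjusted p of 0.00068 (edgeR). Cd93, a membrane receptor, went in opposite directions. It fell from 22.2 ± 1.28 CPM to 11.4 ± 2.84 CPM in IL-2 and rose from 4.96 ± 0.379 CPM to 13.3 ± 1.33 CPM in IL-12, a difference of 2.38 ± 0.21 (adjusted p = 0.00026, edgeR). Cxcr2 and Serpinb5 were below 1 CPM in both IL-2 groups, and passed the filter on low counts through the IL-12 groups. Their fitted differences, 2.22 and 2.20, set a rise in IL-12 against IL-2 levels too low to show a direction there, and Trim66 in IL-2 lay little higher. Neb and Lama5 rose in IL-12 and had effects of -0.03 and 0.77 in IL-2 that were not called, with differences of 1.87 and 1.66. Fam20a, which encodes a pseudokinase of the secretory pathway, and Fgl2, a fibrinogen-like protein, had effects of -1.51 and -1.90 in IL-2 against 0.37 and -0.35 in IL-12, with differences of 1.88 and 1.55. Fam20a was as low in IL-2 as Trim66, at 1.42 ± 0.44 CPM without and 0.486 ± 0.273 CPM with TCM, so that its effect there rests on low levels. The differences of Lama5 and Serpinb5 missed the threshold when almost any single library was left out (adjusted p up to 0.14 and 0.23, edgeR), and that of Cxcr2 without replicate 2 of IL-2.

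Lower effects in IL-12 included Rap1gap2, which fell in both cytokines, from 11.5 ± 1.66 CPM to 1.78 ± 0.433 CPM in IL-2 and 10.3 ± 0.565 CPM to 0.448 ± 0.172 CPM in IL-12 (difference -1.81 ± 0.33). Gucy2e, a guanylate cyclase, and Tmem154 also fell in both and further in IL-12, with differences of -1.52 and -1.52. Tbc1d4, a Rab regulator of glucose transporter traffic, was at 79.8 ± 7.95 CPM and 81.7 ± 9.18 CPM in IL-2 and fell from 21.2 ± 2.12 CPM to 9.09 ± 0.452 CPM in IL-12. Wnt10b, a Wnt ligand, and Ptpn5, a tyrosine phosphatase, rose in IL-2 and fell in IL-12 (differences -1.28 and -1.15). Arhgap29 and Rasgef1a, an exchange factor, differed by -1.55 and -1.18. Arhgap29 was low in IL-2, at 1.25 ± 0.428 CPM without and 1.52 ± 0.486 CPM with TCM. The calls of Arhgap29 and Rasgef1a were lost without any single IL-12 library, with or without TCM, or without replicate 1 or 2 of IL-2 with TCM. Those of Rap1gap2 and Ptpn5 were lost without replicate 1 or 2 of IL-12 with TCM, and that of Ptpn5 also without replicate 1 or 2 of IL-12 alone.

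**Figure D5:**
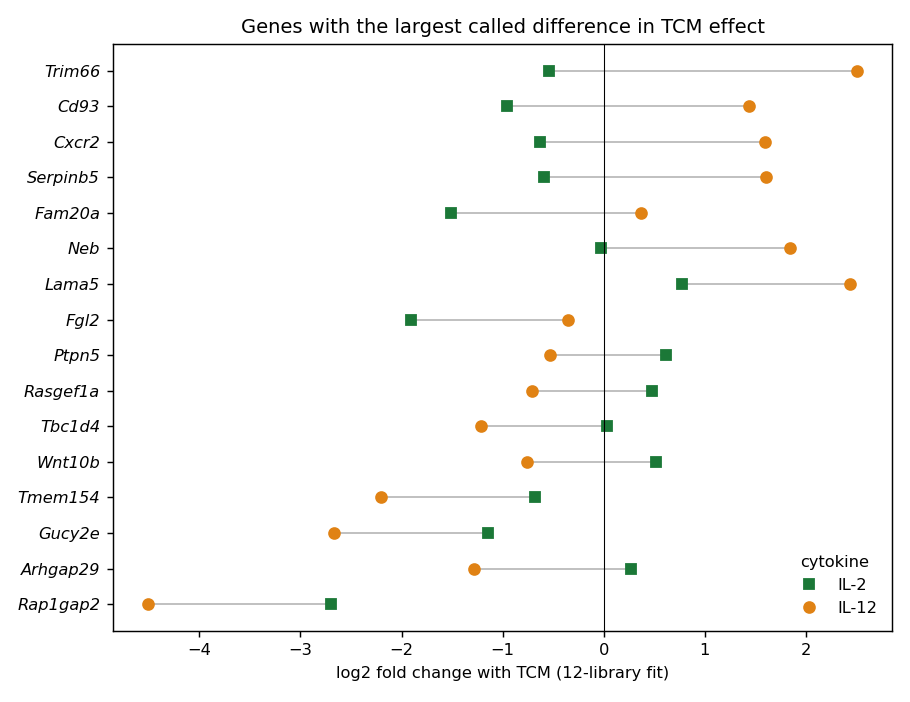
Log2 fold change with TCM in IL-2 (green squares) and in IL-12 (orange circles), from the 12-library fit, of the 16 genes with the largest called difference in each direction. Cd93 lies below 0 in IL-2 and above 1 in IL-12, while Rap1gap2 lies below -2 in both. The IL-2 effects of Trim66, Cxcr2, Serpinb5, Fam20a and Arhgap29 rest on levels near or below 1 CPM.

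In lipid genes, Abca1 fell less in IL-12 than in IL-2 (effects -0.95 and -2.08, difference 1.12 ± 0.12). Scd2 rose in IL-12 with an effect of 0.90 and had 0.09 in IL-2, a difference of 0.82 ± 0.12. Scd1 and Mvd differed by 1.01 and 0.61, calls that were lost when any single IL-12 library, with or without TCM, was left out (adjusted p up to 0.068 and 0.11, edgeR). Of the 20 sterol synthesis genes the difference was called for 3, and for 11 without replicate 3 of both IL-2 groups. Prf1, Gzmb and Lag3 had differences of 0.61, 0.83 and 0.96 that were not called (adjusted p = 0.61, 0.18 and 0.2, edgeR). Without those libraries they were 0.83, 0.92 and 1.02, and all 3 were called. For glycolysis the difference was called for 0 of 23 genes by edgeR, DESeq2 and limma on log2(CPM + 1), each with 2 at an unadjusted p below 0.05, and for 14 without those libraries (edgeR).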

How the data were processed

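RNA of CD8+ T cells was sequenced with a directional NEBNext Ultra II kit, per the labels' protocols. Whether counting used strand is not known here, so that a gene and an overlapping antisense gene cannot be told apart. The authors deposited whole-number counts per gene, made after alignment with STAR 2.7.7a, per the submitters' processing notes, which also name edgeR and a human genome build, although the identifiers are those of mouse genes. A second kind of deposited file holds a signal per gene, the count divided by 1 constant per library, and was used for the limma alternatives only. No genome coordinates of the authors were used, and those printed come from RefSeq.

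The 6 libraries were scaled by TMM, filtered with filterByExpr (minimum count 10, minimum total 15) and fitted with 1 mean per group in edgeR 4.0.16 under R 4.3.3 (quasi-likelihood F test, Benjamini-Hochberg over all genes tested, threshold 0.05). The difference of the TCM effect between cytokines was fitted over all 12 libraries. Standard errors are the absolute log2 fold change over the square root of F. A name table gave symbols for 55141 of 55487 identifiers, and 0.029 to 0.037% of the counts of these 6 libraries lay on the others.

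Genes were named as the 15 highest and 15 lowest log2 fold changes among called genes with at least 10 CPM and no overlap, the 10 largest rises and 10 largest falls in CPM, the 10 smallest p-values, up to 5 called members in each direction of 54 gene lists and 16 marker lists, the 8 highest and 8 lowest differences between cytokines, and 17 anchors. Unnamed gene models were left out, and other list members were named after their values were seen. The comparison and the lists were chosen with earlier results of these data known. Whether equal replicate numbers pair libraries was checked, and the script was tested on simulated data. Alternatives were DESeq2 1.42.0, limma 3.58.1 on log2(CPM + 1) with 0.1 or 5 added instead, other scalings and filters, the replicate block, all 12 libraries, and each library left out. A 10-library fit, lacking replicate 3 of each IL-2 group, was added after seeing the data. Some genes of the lists and anchors are not reported here.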

Additional observations from a re-analysis of the deposited data

Results flagged for a closer look

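The effect of TCM differed between IL-12 and IL-2 for 251 genes by the test of the difference itself (edgeR, 12 libraries). Values are the log2 effect in IL-12 minus that in IL-2.

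Genes with a higher effect in IL-12 were Trim66 (3.04), Cd93 (2.38), Cxcr2 (2.22), Serpinb5 (2.20), Fam20a (1.88), Neb (1.87), Lama5 (1.66) and Fgl2 (1.55). Lipid genes among them were Abca1 (1.12), Scd1 (1.01), Scd2 (0.82) and Mvd (0.61). The calls of Scd1 and Mvd were lost when any single IL-12 library, with or without TCM, was left out. Those of Lama5, Serpinb5 and Cxcr2 were also lost without certain single libraries, as given above. Trim66, Cxcr2 and Serpinb5 were near or below 1 CPM in IL-2, too low to show a direction there, and Fam20a was near or below 1 CPM in IL-2 as well. Atp2b4 (0.58), Plac8 (0.48) and Bcl2 (0.35), abundant genes, differed less.

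A lower effect in IL-12 was found for Rap1gap2 (-1.81), Arhgap29 (-1.55), Tmem154 (-1.52), Gucy2e (-1.52), Wnt10b (-1.28), Tbc1d4 (-1.25), Rasgef1a (-1.18), Ptpn5 (-1.15) and Rasgrp2 (-0.76). Of these 9 genes Rap1gap2, Arhgap29 and Rasgrp2 act on or downstream of Rap1. Arhgap29 was low in IL-2, at 1.25 CPM without and 1.52 CPM with TCM. The calls of Arhgap29, Rasgef1a, Rap1gap2 and Ptpn5 were lost without certain single libraries, as given above. The difference of Rasgrp2 missed the threshold when any 1 of 10 of the 12 libraries was left out, and held without replicate 1 of IL-2 or without replicate 3 of the group with both IL-2 and TCM.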

How the results depend on the processing

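Other scalings, filters and tools called 5741 to 7149 genes against 7133, and leaving out 1 library called 6093 to 6756. With all 12 libraries 4617 were called, of which 4522 were among the 7133. Leaving replicate 3 of both IL-2 groups out of that fit, chosen after seeing the data, gave 7332. The count of called changes of at least 2-fold, 658, was 203 with limma on log2(CPM + 1), 66 with 5 added and 181 with a mean of at least 5 CPM, where low genes are shrunk or not tested. Leaving out 1 library gave 698 to 766. The 251 differences between cytokines became 779 without a filter on low counts, 546 with DESeq2 and 2105 when replicate 3 of each IL-2 group was dropped. Leaving out 1 library gave 105 to 1164, the highest without replicate 3 of IL-2 with TCM. Where no cause is given, the cause was not tested.

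Of 553 genes named here or by the rule, 542 were called and 416 kept their call state and direction under every alternative. Of 9353 values under alternatives 9038 stayed, 305 lost the call and 8 gained it. Direction changed for 2 uncalled genes when a library was left out, Cdkn1a (-0.02 to 0.16) and Ldha (-0.10 to 0.00).

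Replicate numbers were not shown to pair libraries: deviations of same-numbered libraries correlated at 0.1, -0.0066 and 0.025. With the replicate block 7575 genes were called, 658 of them at least 2-fold, and 330 differences between cytokines. Depth limits changes below 1 CPM, where 21.3% of genes were called against 65.4% from 100 CPM.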

Other observations

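By the GENCODE M21 classes, long noncoding genes made up 8.75% of all genes tested, and pseudogenes 10.3%. Of the genes called higher 315 were long noncoding (8.48%) and 91 pseudogenes (2.45%), and of those called lower 75 were long noncoding (2.19%) and 215 pseudogenes (6.29%). Over all levels, the share of long noncoding genes among those called higher was thus near that of all genes. From a mean of 10 CPM up, 114 long noncoding genes (1.31% of all tested there) and 227 pseudogenes (2.62%) were tested. There 55 long noncoding genes were higher (2.35% of the higher genes) and 27 lower (0.992% of the lower genes). Pseudogenes were 21 of the higher (0.897%) and 66 of the lower genes (2.42%). At these levels the long noncoding share of the higher genes thus lay above that of all genes. Pseudogene counts are uncertain where a parent gene is near-identical.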
